A study of Mus musculus with 7 samples.

Results

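The genes described are the metallothioneins Mt1 and Mt2, the metal-responsive transcription factor gene Mtf1, and the zinc transporter genes Slc30a1, Slc30a4, Slc30a5, Slc39a1, Slc39a6, Slc39a8 and Slc39a14. They were listed by name from the pathway, with earlier results of these data known, and are 10 of the 54532 features in the deposited count table. They were read in C3H10T1/2 cells, an established mouse line of mesenchymal cells, from which bone, fat and cartilage cells can be derived. All cells grew in MEM with serum, sodium pyruvate, L-glutamine and non-essential amino acids. The 3 control libraries came from untreated cells, and the 4 OB libraries from cells induced towards osteoblasts for 3 days with the synthetic glucocorticoid dexamethasone, β-glycerophosphate at 10 mM and ascorbic acid at 50 µM, in medium that also held penicillin and streptomycin. The labels do not say whether the control medium held these antibiotics, and the agents were given together, so their parts cannot be told apart. All libraries come from this 1 line.

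Cells keep free zinc very low. Metallothioneins are small, cysteine-rich proteins of the cytosol that bind zinc, copper and cadmium, MTF1 is the zinc finger factor that senses free zinc and switches on their genes through metal response elements, SLC30 proteins (ZnT) move zinc out of the cytosol, and SLC39 proteins (ZIP) bring it in. Glucocorticoids are known to raise metallothionein transcription, and in bone cells zinc is needed by alkaline phosphatase, which is loaded with it in the secretory pathway.

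Promoters are shown first because the metal response element is what links these genes in the textbook account. RefSeq promoter entries on GRCm38.p6 were found for 8 of the 10 genes, and Slc39a14 and Slc39a6 had none. The 250 bases before the RefSeq start were searched on both strands for TGCACNC and TGCGCNC, the core letters of the element, which cannot match the same bases on the same strand. The promoters of Mt1 (chr8:94178839-94179088), Mt2 (chr8:94172368-94172617) and Slc30a1 (chr1:191906531-191906780), the 3 classical MTF1 targets of the set, follow from 5′ to 3′ on the plus strand, with the matches in capitals.
Mt1: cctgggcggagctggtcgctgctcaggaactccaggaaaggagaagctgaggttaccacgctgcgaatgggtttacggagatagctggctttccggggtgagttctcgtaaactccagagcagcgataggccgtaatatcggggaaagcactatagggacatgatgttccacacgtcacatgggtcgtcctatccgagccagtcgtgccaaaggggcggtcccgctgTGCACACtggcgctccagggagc
Mt2: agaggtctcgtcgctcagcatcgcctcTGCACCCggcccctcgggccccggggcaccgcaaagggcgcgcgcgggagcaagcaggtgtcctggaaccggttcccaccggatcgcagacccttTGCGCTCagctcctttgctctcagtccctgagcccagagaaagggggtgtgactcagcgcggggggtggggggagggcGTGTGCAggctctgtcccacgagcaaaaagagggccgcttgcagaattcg
Slc30a1: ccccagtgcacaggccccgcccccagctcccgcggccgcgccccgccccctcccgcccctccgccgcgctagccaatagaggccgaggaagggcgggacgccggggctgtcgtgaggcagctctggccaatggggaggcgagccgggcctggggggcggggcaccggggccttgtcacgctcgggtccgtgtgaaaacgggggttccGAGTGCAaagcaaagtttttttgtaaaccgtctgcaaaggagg
Mt1 had 1 match in this window, 17 to 23 bases before the start, and 2 more in the 50 bases after the start. Mt2 had 3 matches, the nearest of them 44 to 50 bases before the start, and 1 more in the next 50. Slc30a1 had 1 match, on the minus strand 37 to 43 bases before the start, and 1 more in the next 50. At least 1 match was also found for Slc30a4 (2 matches), Slc30a5 and 1 of the alternative starts of Slc39a8, and no match for Mtf1 and Slc39a1. So 6 of 8 genes held a match, while 21.4% of all 32851 promoters held at least 1, 5.17% at least 2 and 1.26% at least 3. The first share counts genes and the others count promoter entries, of which Slc39a8 has more than 1. The 6 genes include the 3 classical MTF1 targets, which were known as such before the search. With the 50 bases after the start included, Mt1 had 3 matches, Mt2 had 4 and Slc30a1 had 2, while 7.11% of all promoters held at least 2, 1.97% at least 3 and 0.517% at least 4. The windows of the 8 genes had a GC content of 47.6% to 82.8% beside a median of 52.4% over all promoters, and the part of base composition in the matches was not tested. TGTTCT, a half-site of the glucocorticoid receptor, was in neither metallothionein window, in those of Mtf1 and Slc30a5, and in 16.1% of all windows. Bases further upstream than 250 were not searched, so its absence says nothing on sites beyond the window. These matches describe letters in a window and not bound sites. Their counts and distances hold for the RefSeq start used. Bases more than 50 after that start were not searched, so elements there are not counted, and the counts do not rank the genes.

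Values per library are listed from the lowest replicate number up, control 1, 2 and 3 and OB 1, 2, 3 and 4. Libraries held 21213328 to 46530017 counts on genes, so that 3 counts equal 0.0645 to 0.141 CPM, the usual unit of counts relative to the scaled library total. The submitters' descriptions split the libraries into label sets, because those of control 1 and OB 1 start with C1, those of control 2 and OB 2 with C2, and those of control 3, OB 3 and OB 4 have no C number. The labels do not say what these marks stand for. Control 3 stood apart from the other libraries on the first principal component, which held 53.1% of the variance, and results are given with and without it where that changes a call. Of the 9 stromal markers all were measured, with a summed level of 29424 to 38890 CPM in control and 22488 to 32590 CPM in OB, in keeping with the mesenchymal label. Collagen genes made up most of this sum (Col1a1 was at 11796 and 6884 CPM, adjusted p 0.0751 by edgeR). DESeq2 and limma-voom called Col1a1 lower, while edgeR with the replicate or the label set as a block did not. Pdgfra, the only stromal marker called by edgeR's main test, rose from 247 to 720 CPM (adjusted p 0.0182), a call that ended without control 2 or without OB 1. Of the osteoblast markers, Runx2 was at 97.1 CPM in control and 76.6 CPM in OB (adjusted p 0.135 by edgeR). Every OB library was below every control library for Runx2, as for 12.3% of all genes. The later markers were near 0, with 5 and 11 counts of Alpl, 29 and 15 of Sp7 and 6 and 6 of Bglap over the libraries of the groups. Ibsp had 2 counts in control and 31 in OB and did not pass edgeR's filter on low counts. DESeq2 called it higher, while edgeR with no filter did not. Every OB library was above every control library, but this rests on 2 counts in OB 2 against 1 in control 3. Dmp1 had 114 and 45 counts and its groups overlapped. The 5 macrophage markers summed to 2.42 to 3.36 CPM in control and 2.05 to 3.52 CPM in OB, with Adgre1 at 0 counts throughout and 3 counts of Ptprc in each group. Those of endothelium (4 genes) summed to 2.34 to 9.43 and 3.34 to 8.03 CPM, and those of epithelium (5 genes, Epcam at 0) to 1.59 to 3.99 and 1.07 to 1.87 CPM.

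Mt1, the metallothionein gene with the most counts, rose about 4.37-fold in mean level in the OB group, and every OB library was above every control library. Mt2, its neighbour and close homologue, was also higher in every OB library but just missed the threshold. None of the 8 other genes passed the test, among them the zinc sensor Mtf1 and the exporter gene Slc30a1. By edgeR's quasi-likelihood test, with p-values adjusted by Benjamini-Hochberg over all 15441 genes tested and a threshold of 0.05, 1 of 10 genes was called higher in OB, beside 4.32% of all genes, and 0 were called lower, beside 3.72% of all genes. In either direction 8.04% of all genes were called. At an unadjusted p under 0.05 there were 4 higher, beside 12.8% of all genes, and 1 lower, beside 12.4%. With DESeq2 2 were called higher (7.36% of all genes) and 1 lower (6.45%), and with limma-voom 4 (8.08%) and 1 (7.0%). With the replicate number as a block, which the main test leaves out, edgeR called 2 higher (Mt1 and Mt2) and 1 lower (Slc30a4). That fit called 831 genes higher and 522 lower in all. All OB libraries lay above all control libraries for 3 of the genes (13.2% of all genes) and below them for 1 (12.3%). The median log2 fold change of the 10 was 0.18, beside -0.00 over all genes, with 7 positive and 3 negative values. In bulk RNA, fewer cells that express a gene and less RNA per cell cannot be told apart.

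Mt1 (ENSMUSG00000031765) lies on chromosome 8 at 94179082 to 94180327 of GRCm38, plus strand, and shares none of its 1246 exon bases with another gene. It stood at 68.3, 50.9 and 80.0 CPM in the control libraries (3207, 1789 and 2017 counts), and at 401, 360, 189 and 210 CPM in the OB libraries (9868, 15302, 4074 and 5079 counts). The groups did not overlap, and OB 1 and OB 2 stood well above OB 3 and OB 4. The means were 66.4 ± 14.6 (SD, n = 3) and 290 ± 106 (SD, n = 4) CPM, a log2 fold change of 2.13 ± 0.32 (SE) with an adjusted p of 0.0116 by edgeR. Mt1 passed under all 16 alternatives run, including each library left out in turn, with adjusted p up to 0.0484 (without control 2). Among the summed level of the 10 genes, Mt1 made up 10.1% to 13.5% in control and 28.1% to 45.0% in OB.

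The size of the Mt1 rise differed between the label sets. OB 1 was 5.88 times control 1 and OB 2 was 7.06 times control 2, while OB 3 was 2.36 times and OB 4 2.63 times control 3. The log2 fold change was 2.68 in the C1 and C2 sets together and 1.30 in the set with no C number. The difference of these effects was -1.36 ± 0.23 (log2, SE), with an adjusted p of 0.0313 by edgeR's test of the interaction, a test added after the data were seen, and 6.50% of all genes passed it. No other gene of the 10 did, with the lowest adjusted p at 0.0506 (Slc39a6) and 0.0562 (Slc39a14). The sets differed on both sides of this comparison. OB 1 and OB 2 were at 401 and 360 CPM and OB 3 and OB 4 at 189 and 210 CPM. Control 3 was at 80.0 CPM and control 1 and control 2 at 68.3 and 50.9 CPM. Only control 3 serves as control in the set with no C number, so on the control side this library and the label set cannot be told apart.

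**Figure D1:**
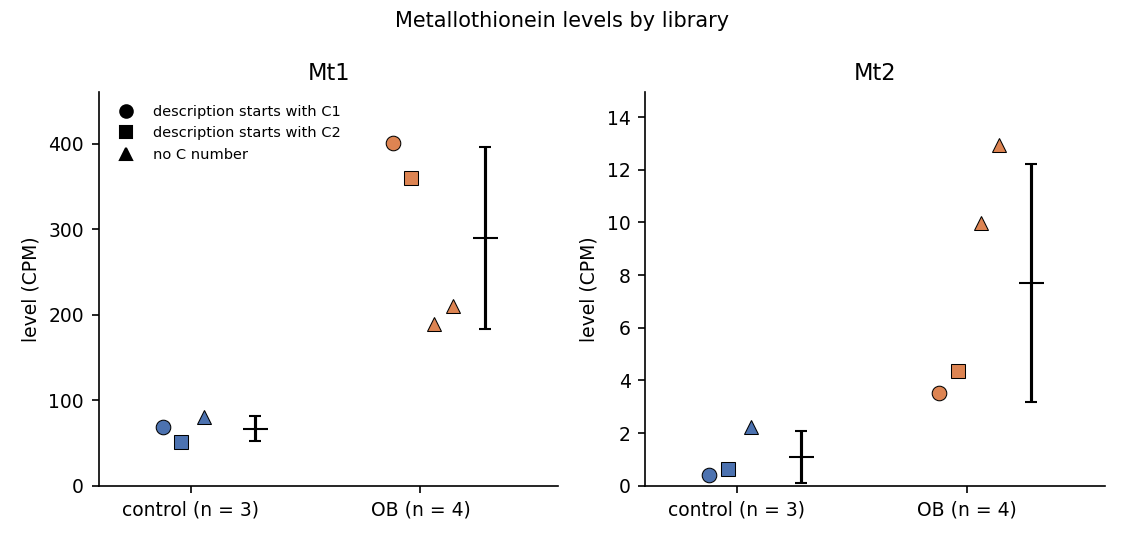
Levels of Mt1 (left) and Mt2 (right) in CPM, 1 point per library, in 3 control and 4 OB libraries; marker shapes give the label set, and the bar beside each group is the mean ± SD. All OB libraries sit above all control libraries in both panels, with OB 1 and OB 2 highest for Mt1 (401 and 360 CPM) and OB 3 and OB 4 highest for Mt2 (9.96 and 12.9 CPM).

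Mt2 (ENSMUSG00000031762) lies on chromosome 8 at 94172664 to 94173568, plus strand, and ends 5513 bases before Mt1. Its level was 0.404, 0.626 and 2.22 CPM in the control libraries (19, 22 and 56 counts), and 3.54, 4.35, 9.96 and 12.9 CPM in the OB libraries (87, 185, 215 and 313 counts). Every OB library was above every control library, and the label set with no C number was the highest within each group. Mt2 had a log2 fold change of 2.87 ± 0.73 (SE) from means of 1.08 ± 0.99 (SD, n = 3) and 7.70 ± 4.52 (SD, n = 4) CPM, with an adjusted p of 0.0516 by edgeR, so Mt2 did not pass. It passed in 8 of 16 alternatives, among them the fit with replicate number as a block (2.65, adjusted p 0.00940 by edgeR), DESeq2 (1.11e-04) and the fit without control 3 (0.0239). Relative to Mt1, the count of Mt2 was 0.592%, 1.23% and 2.78% in the control libraries, and 0.882%, 1.21%, 5.28% and 6.16% in the OB libraries. These ratios overlapped between the groups, with a difference of 0.94 in log2 and an exact two-sided permutation p of 0.4 (0.4 after adjustment over 2 ratios; 3 against 4 libraries allow no p below 0.0571).

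How Mt2 was counted bears on its level. Of its 588 exon bases 432 (73.5%) also belong to Gm45774, a single-exon gene on the minus strand at 94170748 to 94173412, which leaves 156 bases at the 3′ end (94173413 to 94173568). The counting used neither strand nor an option for overlapping genes, so a fragment lying in both genes was given to neither. Gm45774 itself had 16 counts over the 3 control libraries and 52 over the 4 OB libraries. Spread over the 156 unshared bases alone, the level of Mt2 was 6.95 ± 6.36 (SD, n = 3) CPM per kb in control and 49.4 ± 29.0 (SD, n = 4) in OB, against 53.3 ± 11.8 and 233 ± 85.3 for Mt1. The ratio of Mt2 to Mt1 in these data is therefore that of the counted part of the genes, and how many fragments were lost in the overlap was not tested.

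**Figure D2:**
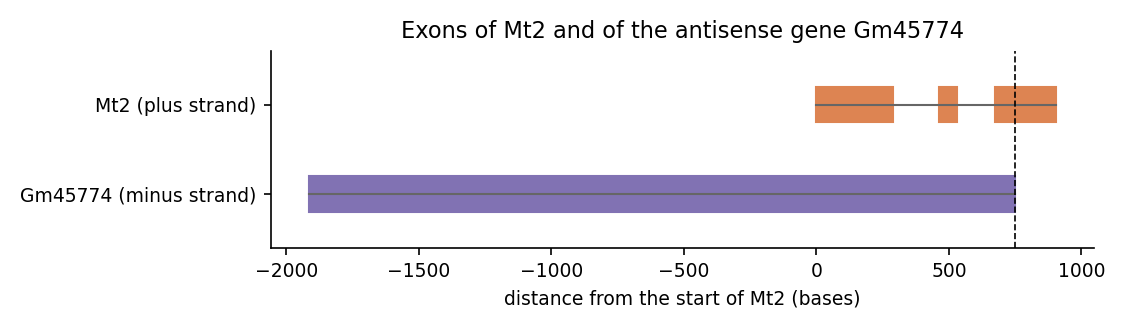
Exons of Mt2 and of the antisense gene Gm45774, by distance from the start of Mt2 in bases, drawn to scale; blocks are exons and thin lines join the exons of a gene. The dashed line marks the end of Gm45774, 748 bases from the start of Mt2, beyond which the 156 bases of Mt2 that belong to no other gene lie.

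The other genes of the metallothionein cluster were not expressed. Mt3, the form best known from brain, had 0 counts in all 7 libraries, which allows up to 0.0136 CPM over their 220662366 counts, and Mt4, the form of stratified epithelia, had 1 count. Of the expressed genes that flank the cluster, Bbs2 changed by 0.36 in log2 (adjusted p 0.400) and Nup93 by -0.42 (adjusted p 0.151) by edgeR, neither past the threshold.

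Mtf1 (chromosome 4, 124802104 to 124849800, plus strand) encodes the zinc sensor. Its level was 26.7, 25.8 and 30.8 CPM in the control libraries, and 33.0, 30.9, 32.3 and 35.04 CPM in the OB libraries. The OB libraries were all above the control libraries, though OB 2 and control 3 nearly met. The difference was 0.24 ± 0.11 (log2, SE) from means of 27.8 ± 2.66 (SD, n = 3) and 32.8 ± 1.71 (SD, n = 4) CPM, with an adjusted p of 0.221 by edgeR. Of 16 alternatives 1 passed, limma-voom (adjusted p 0.0397). Mtf1 shares 8.09% of its exon bases with the minus-strand gene 1110065P20Rik.

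Slc30a1, which encodes the zinc exporter of the plasma membrane and is itself an MTF1 target, lies on chromosome 1 at 191906767 to 191913247, plus strand. It was at 22.8, 27.5 and 13.1 CPM in the control libraries, and at 18.5, 21.2, 16.3 and 17.3 CPM in the OB libraries. Control 2 was the highest and control 3 the lowest of all 7 libraries, so the OB group lay inside the control range. The log2 fold change was -0.21 ± 0.24 (SE) with an adjusted p of 0.639 by edgeR, from means of 21.1 ± 7.32 (SD, n = 3) and 18.3 ± 2.12 (SD, n = 4) CPM. Its sign turned to 0.34 in the label set with no C number and to 0.015 without control 2.

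Slc30a4, whose protein loads zinc into vesicles of the secretory and endosomal pathway, was the gene with the most negative log2 fold change of the 10. It lies on chromosome 2 at 122681233 to 122702663, minus strand, and stood at 76.9, 79.5 and 116 CPM in the control libraries, and at 54.1, 56.3, 62.5 and 62.7 CPM in the OB libraries. All OB libraries were below all control libraries, and they lay close together while control 3 stood apart. The log2 fold change was -0.62 ± 0.16 (SE), from means of 90.8 ± 21.9 (SD, n = 3) and 58.9 ± 4.36 (SD, n = 4) CPM, and the adjusted p of 0.0504 by edgeR just missed the threshold. It passed with the replicate number as a block (-0.63, adjusted p 0.0382 by edgeR), without control 3 (-0.42, adjusted p 0.0486) and in 9 of 16 alternatives in all. Slc30a5, which encodes a transporter of the early secretory pathway that supplies zinc to alkaline phosphatase, lies on chromosome 13 at 100802648 to 100833427, minus strand. Its level was 46.6, 50.3 and 66.4 CPM in the control libraries, and 49.7, 44.4, 57.1 and 54.9 CPM in the OB libraries. The groups overlapped, and the log2 fold change was -0.08 ± 0.15 (SE) with an adjusted p of 0.788 by edgeR.

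Among the importers, Slc39a1 was the most highly expressed. Its protein takes up zinc at the plasma membrane of many cell types, and the gene lies on chromosome 3 at 90248172 to 90253612, plus strand. Levels were 141, 151 and 118 CPM in the control libraries, and 144, 165, 127 and 120 CPM in the OB libraries. Within each label set the OB and control libraries were near each other, and the log2 fold change was 0.02 ± 0.14 (SE) with an adjusted p of 0.947 by edgeR. Of the 50-base words in its transcripts 21.8% recur in those of other genes, mainly the pseudogene Slc39a1-ps, and how much this alters its level was not tested. Slc39a6, on chromosome 18 at 24579881 to 24603817, minus strand, encodes an importer that works together with SLC39A10. It was at 64.0, 67.7 and 94.1 CPM in the control libraries, and at 86.5, 81.1, 82.7 and 75.7 CPM in the OB libraries. The high value of control 3 made the groups overlap, and the log2 fold change was 0.12 ± 0.15 (SE) with an adjusted p of 0.666 by edgeR. Its sign differed between the label sets, at -0.26 in the set with no C number.

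Slc39a14 and Slc39a8 encode the importers closest to each other in sequence here, which carry zinc, manganese and iron not bound to transferrin. Slc39a14 (chromosome 14, 70303469 to 70351425, minus strand) was at 58.1, 51.7 and 91.7 CPM in the control libraries, and at 101, 84.7, 95.2 and 88.2 CPM in the OB libraries. Control 3 lay within the OB range and the other control libraries well below it. Its log2 fold change was 0.46 ± 0.20 (SE), from means of 67.2 ± 21.5 (SD, n = 3) and 92.2 ± 7.16 (SD, n = 4) CPM, with an adjusted p of 0.194 by edgeR. It was larger without control 3 (0.74, adjusted p 0.0143 by edgeR) and in the C1 and C2 sets (0.76, adjusted p 0.0258). In the set with no C number it was -0.015. Control 3 is the only control of that set, so this library and the label set cannot be told apart.

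Slc39a8 (chromosome 3, 135825279 to 135888572, plus strand) was close to the lower limit of detection. It had 4, 5 and 1 counts in the control libraries, and 12, 4, 14 and 13 counts in the OB libraries, or 0.0397 to 0.142 and 0.0940 to 0.649 CPM. OB 2 lay within the control range, and the other OB libraries above it. Slc39a8 passed the filter on low counts only through its OB libraries. Pooled over libraries and scaled for depth, the level in OB was 4.09 times that in control (95% exact binomial interval 2.03 to 9.14, for counting error only). This interval leaves out the spread between libraries and, with this filter, is no support for a difference. The log2 fold change was 2.15 ± 0.73 (SE) with an adjusted p of 0.115 by edgeR. The adjusted p fell below the threshold without OB 2 (0.0407), the only OB library inside the control range, and in the set with no C number (0.0313), where the lone control had 1 count, and with this filter neither is support for a difference. The log2 ratio of Slc39a14 to Slc39a8 counts differed by -1.68 between OB and control and overlapped between the groups, with an exact two-sided permutation p of 0.171 (0.343 adjusted over 2 ratios), and it rests on the few counts of Slc39a8.

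**Figure D3:**
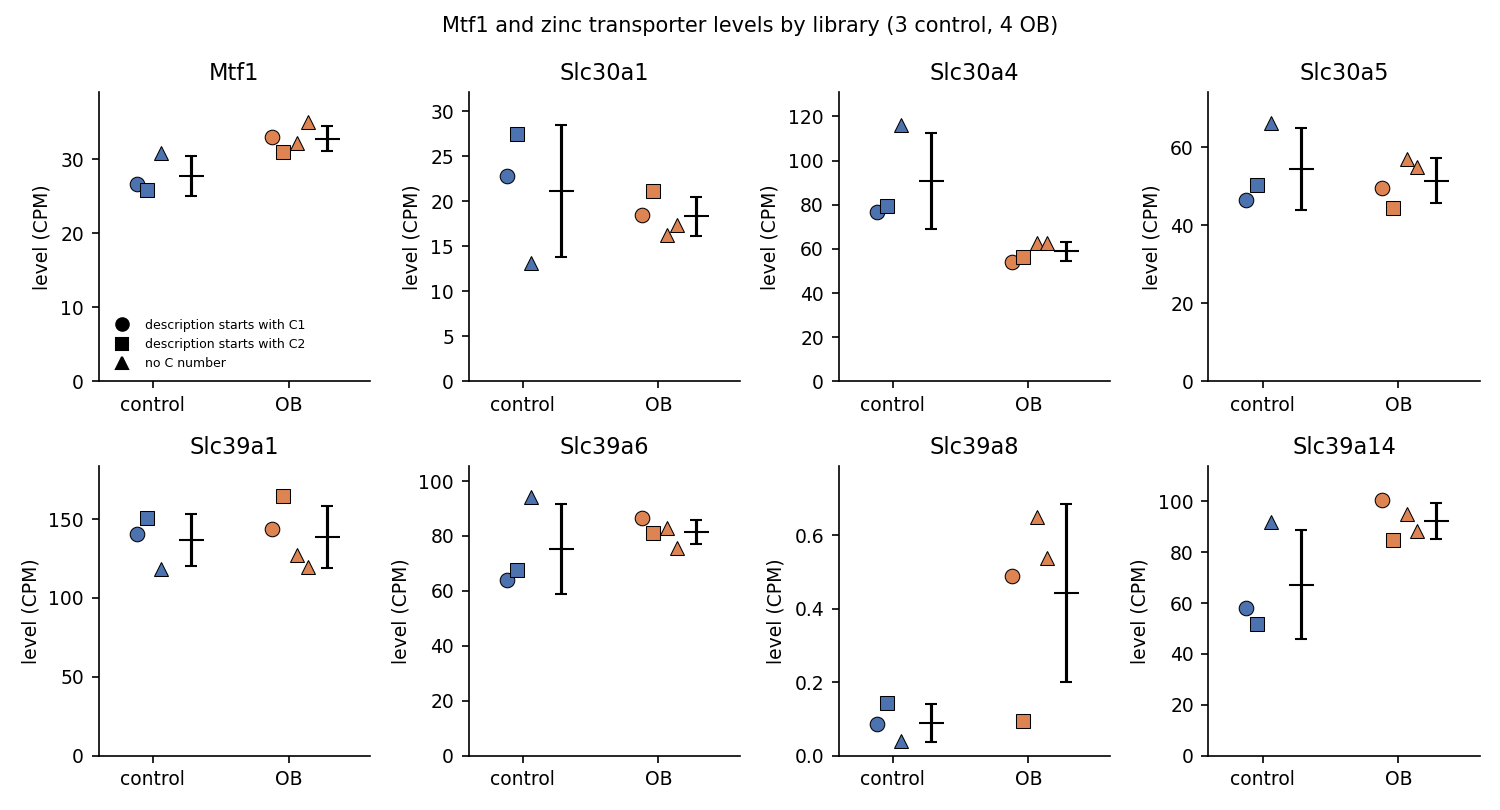
Levels in CPM of Mtf1 and the 7 transporter genes, 1 point per library, in 3 control and 4 OB libraries; marker shapes give the label set, and the bar beside each group is the mean ± SD. All OB libraries lie below the control libraries for Slc30a4 and above them for Mtf1, control 3 (triangle) lies apart from the other control libraries for Slc30a1, Slc30a4, Slc30a5, Slc39a6 and Slc39a14, and Slc39a8 stays under 1 CPM.

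**Figure D4:**
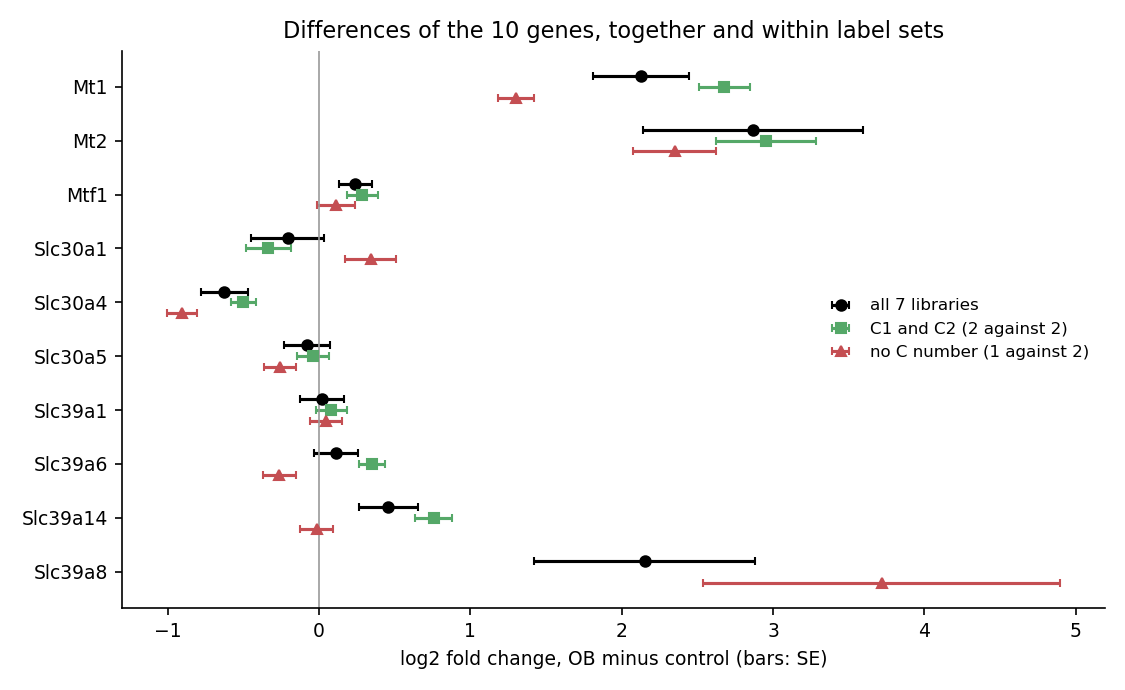
Log2 fold changes, OB minus control, of the 10 genes with their SE from edgeR, for all 7 libraries (3 control, 4 OB), for the C1 and C2 label sets alone (2 against 2) and for the set with no C number (1 against 2). Mt1 and Mt2 are positive and Slc30a4 negative in each, Slc30a1, Slc39a6 and Slc39a14 differ in sign between the label sets, and Slc39a8 had too few counts for the C1 and C2 sets alone.

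Levels of different genes were compared per length, as CPM per kb of exon. The length counts all annotated exons of a gene, such as 1246 bases for Mt1 and 7294 for Slc30a5. Their longest coding transcripts have 1085 and 3179 bases, so the order of genes at near levels depends on the length used. The order by transcript length was not tested. In control, Slc39a1 (57.8) and Mt1 (53.3) led and their libraries overlapped, followed by Slc39a6 (18.5) and Slc30a4 (16.6), which overlapped as well. Slc30a5 (7.46) and Slc39a14 (6.37) came next, then Slc30a1 (4.03), Mtf1 (3.12), Mt2 (1.84) and Slc39a8 (0.0116). In OB, Mt1 (233) stood alone at the top, since its lowest library (152) was above the highest of Slc39a1 (69.6). Slc39a1 (58.7), Slc39a6 (20.0), Mt2 (13.1), Slc30a4 (10.7), Slc39a14 (8.74), Slc30a5 (7.06), Mtf1 (3.68), Slc30a1 (3.49) and Slc39a8 (0.0577) followed. Mt2 moved from the ninth to the fourth place, though its OB libraries spanned 6.02 to 22.0 and so covered the values of Slc39a6, Slc30a4, Slc39a14 and Slc30a5. These levels use all 588 exon bases of Mt2, shared ones included, and both places depend on that. Over its 156 unshared bases Mt2 was at 6.95 in control, between Slc30a5 and Slc39a14. In OB it was then at 49.4, between Slc39a1 and Slc39a6.

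**Figure D5:**
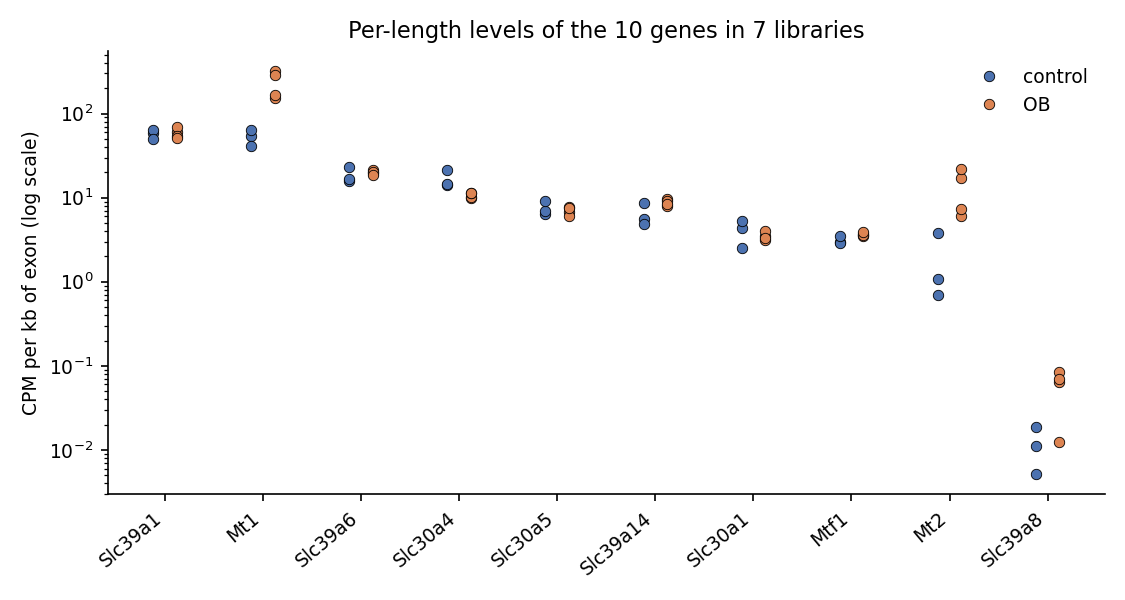
Levels of the 10 genes as CPM per kb of exon on a log scale, 1 point per library, in 3 control and 4 OB libraries, ordered by the control mean. Mt1 in OB (152 to 322) lies above all other genes, and Slc39a8 lies lowest in both groups.

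None of the other zinc genes passed edgeR's main test, which used no block. Of 19 further metallothionein and zinc transporter genes 11 were tested. Of these edgeR called 0 higher and 0 lower, beside 4.32% and 3.72% of all genes. At an unadjusted p under 0.05 there were 0 higher and 2 lower (Slc39a5 and Slc39a10), beside 12.8% and 12.4% of all genes. DESeq2 called 0 higher and 1 lower (Slc39a10), beside 7.36% and 6.45% of all genes. Limma-voom called 0 and 0, beside 8.08% and 7.0%. With the label set as a block Slc39a3 was called higher (0.36, adjusted p 0.0441 by edgeR) and Slc39a10 lower (-0.60, adjusted p 0.0199). That fit called 1433 genes higher and 1256 lower in all. The median log2 fold change of the 11 was -0.03. Slc39a13, an importer of the secretory pathway that is needed in connective tissue, was at 95.8 ± 19.7 (SD, n = 3) and 101 ± 6.82 (SD, n = 4) CPM, a log2 fold change of 0.07 ± 0.14 (SE) with an adjusted p of 0.795 by edgeR. For Slc39a3, another importer, the levels were 61.6 ± 10.5 (SD, n = 3) and 75.7 ± 5.82 (SD, n = 4) CPM, a log2 fold change of 0.30 ± 0.14 (SE) with an adjusted p of 0.218 by edgeR.

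Among 6 other genes known as MTF1 targets, all tested, edgeR called 1 higher and 0 lower, beside 4.32% and 3.72% of all genes. Their median log2 fold change was -0.05. At an unadjusted p under 0.05 there were 2 higher and 2 lower, beside 12.8% and 12.4% of all genes. DESeq2 called 2 higher and 1 lower (7.36% and 6.45% of all genes), and limma-voom also 2 and 1 (8.08% and 7.0%). Csrp1, which encodes a zinc-binding LIM protein of the actin cytoskeleton, was at 301, 291 and 252 CPM in the control libraries, and at 459, 370, 451 and 369 CPM in the OB libraries. The groups did not overlap, and the log2 fold change was 0.55 ± 0.13 (SE) with an adjusted p of 0.0432 by edgeR. The call ended with any 1 library left out (adjusted p up to 0.124) and with the replicate number as a block (0.0528). That block called 2 others higher, Gclc and Ndrg1, and 1 lower, Slc40a1, beside 831 and 522 genes in all. Gclc, which encodes the catalytic subunit of glutathione synthesis, was at 48.7 ± 22.9 (SD, n = 3) and 120 ± 34.0 (SD, n = 4) CPM with every OB library above every control library. Its log2 fold change of 1.30 ± 0.33 (SE) missed the threshold (adjusted p 0.0517 by edgeR) and passed in 9 of 16 alternatives, among them the replicate block (1.39, adjusted p 0.0120) and the fit without control 3 (1.75, adjusted p 0.0156). Selenow, the selenoprotein W gene, was at 225 ± 83.4 (SD, n = 3) and 143 ± 13.3 (SD, n = 4) CPM, a log2 fold change of -0.66 ± 0.23 (SE) with an adjusted p of 0.124 by edgeR, and it passed without control 3 (-0.89, adjusted p 0.0255) and with limma-voom (-0.76, adjusted p 0.0247).

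Genes of iron, copper and manganese handling (16, of which 15 were tested, with Slc40a1 also among the MTF1 targets) had 3 called higher and 0 lower by edgeR, beside 4.32% and 3.72% of all genes, and a median log2 fold change of 0.02. At an unadjusted p under 0.05 there were 3 higher and 1 lower, beside 12.8% and 12.4% of all genes. With DESeq2 3 were called higher and 1 lower (7.36% and 6.45% of all genes), and with limma-voom 3 and 0 (8.08% and 7.0%). Slc31a2, a copper transporter gene of intracellular membranes, stood at 23.9, 28.2 and 18.1 CPM in the control libraries, and at 76.6, 92.9, 60.1 and 61.5 CPM in the OB libraries. The groups were far apart, with a log2 fold change of 1.64 ± 0.21 (SE) and an adjusted p of 0.00755 by edgeR, and the gene passed under all 16 alternatives. Fth1, which encodes the ferritin heavy chain that stores iron, rose from 1138 ± 71.9 (SD, n = 3) to 2627 ± 850 (SD, n = 4) CPM, a log2 fold change of 1.21 ± 0.25 (SE) with an adjusted p of 0.0296 by edgeR. Its call ended without control 1, 2 or 3, OB 1 or OB 2 (adjusted p up to 0.0896). Atp7a, the gene of a copper-exporting ATPase, went from 38.6 ± 6.91 (SD, n = 3) to 62.4 ± 6.62 (SD, n = 4) CPM, a log2 fold change of 0.69 ± 0.15 (SE) with an adjusted p of 0.0330 by edgeR. That call ended without control 2, OB 1, OB 2 or OB 4 (adjusted p up to 0.0915).

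The genes most like Mt1 in pattern were found by the root mean square difference of log2 CPM, centred over the 7 libraries, among 10387 expressed genes. Nearest were Ifi211 (0.254), Trnp1 (0.271), Clec2d (0.277), Net1 (0.300) and Rasa3 (0.300). The same measure between Mt1 and Mt2 was 1.16, and Mt1 was the 85th of the 10388 genes compared with Mt2. Among those nearest to Mt2 were Cacng7 (0.327), Rnf128 (0.434), Cd24a (0.685) and Lpin3 (0.755). The 7 libraries share the group difference, so any gene that rose by a like amount ranks high on this measure.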

How the data were processed

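RNA from 3 control and 4 OB libraries was extracted with Trizol and made into libraries with a TruSeq v2 kit, per the labels' protocols. Trimmomatic, HISAT2, featureCounts and mm10 are named in the submitters' processing notes. The authors deposited raw counts of fragments for each gene, made by featureCounts 1.6.4 on Ensembl 94 and summed over exons without strand, overlap or multi-mapping options, per the file headers. The other deposited column is exon length in bases, per the file headers, and was used here for levels per kb. Columns carry numbers only; the counting command in the header lists its inputs by the names in the sample descriptions, and columns were assigned in that order, and nothing else in the files tests this match. Symbols were found for 54409 of 54532 features. Replicates are called biological in the design text, and the p-values reflect only how these libraries vary.

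The main test was edgeR 4.0.16 in R 4.3.3 (filterByExpr, TMM factors of 0.981 to 1.024, quasi-likelihood test, Benjamini-Hochberg over 15441 genes, threshold 0.05). Genes varied with a common biological coefficient of variation of 26.9%. The SE is the log2 fold change divided by the square root of the F statistic, and log2 CPM used a prior count of 2. Ratios of counts were tested by exact permutation (scipy 1.17.1). DESeq2 1.42.0, limma 3.58.1 (voom), other scalings, blocks, label sets and left-out libraries were alternatives, and the interaction of group and label set was added after the data were seen. Libraries of 1 group differed by a chi-square of 13.6 to 148 per degree of freedom, so none looked like a second deposit of another; this does not show that the cultures were independent. Precision is set by depth, at 0.0645 to 0.141 CPM for 3 counts.

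The genes and lists were chosen with earlier results of these data known. Named were all 10 genes, up to 4 called genes of each other list in order of p, or the 2 of highest level per length where fewer than 2 were called, and the 5 genes most like Mt1 and Mt2 at 2 log2 CPM or more on average, leaving out predicted names; 1 gene that met this rule is not reported here. Slc39a5, Slc39a10, Gclc, Ndrg1, Slc40a1, the markers and the neighbours of the cluster were named outside this rule, some after their values were seen. Replicate numbers in the labels were taken as pairs in the replicate block only, and the main test used no block. Deviations from the group means correlated above 0.1 for numbers 1, 2 and 3 (0.17, 0.52 and 0.40 across genes). However, OB 1 correlated more with control 2 (0.21), and OB 4 with control 3 at 0.27. OB 4 has no control of its number, so it adds nothing to the difference in the replicate block. The numbers follow the label sets, so pairs and label sets cannot be told apart. Promoters came from RefSeq on GRCm38.p6, whose starts differ from those of the count annotation by 7 bases for Mt1, 46 for Mt2 and 14 for Slc30a1. Protein sequences were not used here.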

Additional observations from a re-analysis of the deposited data

Results flagged for a closer look

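The difference of Mt1 between OB and control was not the same in the label sets. The log2 fold change in the set with no C number was lower by 1.36 than that in the C1 and C2 sets, and the value of -1.36 ± 0.23 (SE) passed edgeR's test of the interaction (adjusted p 0.0313), beside 6.50% of all genes. The direction was the same in the 4 comparisons within sets, with OB levels of 5.88, 7.06, 2.36 and 2.63 times the control of the same set. The OB libraries differed between the sets as well, at 401 and 360 CPM in OB 1 and OB 2 and at 189 and 210 CPM in OB 3 and OB 4. Control 3 is the only control of the set with no C number, and what the sets stand for is not given.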

How the results depend on the processing

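With 3 against 4 libraries the ratios cannot reach a p below 0.0571, Slc39a8 rests on 10 control and 43 OB counts, and the counts of called genes depend on the tool and the libraries. Against 667 genes higher and 574 lower in OB, DESeq2 called 1296 and 1136, limma-voom 1247 and 1081, the label set as a block 1433 and 1256, the set with no C number alone 3052 and 3413, and the C1 and C2 sets alone 1030 higher. Leaving out 1 library gave 190 to 575 higher and 104 to 703 lower. Of the 10 genes 1 was higher and 0 lower; 2 were higher with no filter, with DESeq2, with the replicate block and with the label set block, 3 in the C1 and C2 sets and in the set with no C number, 4 with limma-voom, and 1 to 3 with a library left out. In each of those 7 settings 1 was lower, Slc30a4, and 0 to 1 with a library left out. The replicate block gave 831 genes higher and 522 lower, and among the 10 genes it changed the calls of Mt2 (2.65, adjusted p 0.00940 by edgeR) and Slc30a4 (-0.63, adjusted p 0.0382) alone. Signs turned for Slc30a1 (0.34 in the set with no C number, -0.46 to 0.015 with a library left out), Slc30a5 (0.080 with limma-voom, -0.19 to 0.082 with a library left out), Slc39a1 (-0.12 with limma-voom, -0.080 to 0.086 with a library left out), Slc39a14 (-0.015 in the set with no C number) and Slc39a6 (-0.26 in that set, -0.0007 to 0.30 with a library left out), none of which passed in these fits; the cause was not tested. The difference in the log2 ratio of Mt2 to Mt1 kept its sign, at 0.39 to 1.51, with a library left out. So did that of Slc39a14 to Slc39a8, at -2.28 to -0.95. In the C1 and C2 sets alone both were much smaller, at 0.27 and -0.21, beside 0.94 and -1.68 with all libraries. Slc39a8 gave no fold change in the C1 and C2 sets or without OB 1, OB 3 or OB 4, where it did not pass the filter. In the set with no C number the lone control library is assumed to vary like the OB libraries.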
